A study of Mus musculus with 12 samples.

Results

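Cyp2a4, Cyp2a5, Cyp2b9, Cyp2b10, Cyp2b13, Cyp3a11, Cyp3a13, Cyp3a25 and Cyp3a44 are 9 genes of the Cyp2a, Cyp2b and Cyp3a subfamilies of cytochrome P450, and their signal was followed here in mouse liver over 12 microarrays. They were chosen by symbol, with earlier results of these data known, and make up 9 of the 30143 features that carried a usable gene name. Each gene had 1 probe set, so that taking the brightest probe set per gene left nothing to choose. The probe set of Cyp2a5 is annotated with Cyp2a4 as well, reads either gene, and is called the Cyp2a5/Cyp2a4 probe set below. The other 8 carry 1 symbol each.

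The study asked whether obesity of a female ancestor leaves a trace in liver gene expression of later male generations. The F2 group held 4 arrays of liver RNA from grandsons of obese females of the Avy/a genotype, an allele of the agouti gene that makes carriers obese. The F3 group held 4 arrays from great-grandsons of such females, and the control group 4 arrays from males whose parents were lean controls. All were C57BL/6 males of 12 weeks. The status label of both descendant groups speaks of an obese mother while the design text speaks of grandsons and great-grandsons, and the labels used here do not say whether the sons inherited the Avy allele, how many litters they came from, or whether the arrays of a group are separate animals. The p-values below therefore measure the spread between arrays.

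Cytochrome P450 enzymes are haem proteins of the endoplasmic reticulum that add oxygen to steroids, bile acids, drugs and other foreign compounds. In mouse liver the Cyp2b and Cyp3a genes are known targets of the nuclear receptors CAR and PXR, which are activated by foreign compounds, and many Cyp2a, Cyp2b and Cyp3a genes are expressed at different levels in males and females under the control of growth hormone. Liver P450 messages are also known to fall during the acute phase response, when the liver secretes serum amyloid A and other inflammatory proteins.

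Values are log2 signal as deposited, and a log2 difference of 1 is a doubling. Probe sets differ in how strongly they bind, so levels were compared between arrays for the same probe set and never between genes. Liver markers were high on all 12 arrays, with Alb between 13.22 and 13.39 and Cyp2e1 between 12.80 and 13.00. Xist lay between 3.37 and 3.60 and the Y-linked gene Kdm5d between 5.93 and 6.33 on all 12 arrays, which are labelled male. The arrays also fell into 7 with a higher and 5 with a lower mean signal of 337 small nucleolar RNAs (6.33 to 6.44 against 5.89 to 6.03). The lower set held controls 1 and 3, F2 replicates 2 and 3 and F3 replicate 4, so it crossed the groups. Detection calls were not used here. As a measure of background, 5222 negative control probe sets had a median of 4.24 and a 95th percentile of 7.05.

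The sequences below place the members beside each other before their values. They are the 250 bases upstream of an annotated transcription start in RefSeq on build GRCm38.p6, written 5′ to 3′ on the gene's own strand. A single start was used per gene, and distances below are counted from it. For Cyp2b9, Cyp2b13, Cyp3a25 and Cyp3a44 that start lies inside the annotated gene, so part of the window does too. All 9 members had an entry. The motifs searched, on both strands, were TATAAA (the TATA box), TGTTTAC (a forkhead factor motif), AGGTCA and AGTTCA (hexamers read by nuclear receptors) and TTCNNNGAA (the STAT5 motif). Matches are descriptions of letters, not of binding.

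Cyp2a4 and Cyp2a5 are shown because their probe sets moved almost as 1. Their windows are chr7:26306942-26307191 (plus strand) and chr7:26835089-26835338 (plus strand), and capitals mark TATAAA, which 12.4% of the 32851 RefSeq windows of this length hold.
Cyp2a4: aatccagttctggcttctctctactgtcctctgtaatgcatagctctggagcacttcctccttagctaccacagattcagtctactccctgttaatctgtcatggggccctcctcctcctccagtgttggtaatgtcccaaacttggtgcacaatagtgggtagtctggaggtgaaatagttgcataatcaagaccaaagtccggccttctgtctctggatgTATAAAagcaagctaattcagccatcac
Cyp2a5: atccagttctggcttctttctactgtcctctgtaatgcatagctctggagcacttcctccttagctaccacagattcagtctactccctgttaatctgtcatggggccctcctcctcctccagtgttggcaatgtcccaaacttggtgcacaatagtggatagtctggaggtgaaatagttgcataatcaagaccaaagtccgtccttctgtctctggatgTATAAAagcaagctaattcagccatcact

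The windows of the pair held 98.0% identical bases. TATAAA begins 28 bases before the start in Cyp2a4 and 29 bases before it in Cyp2a5. Cyp2b9 and Cyp2b13 are shown because a single control array was highest for both. Their windows are chr7:26173159-26173408 (plus strand) and chr7:26061245-26061494 (plus strand), and capitals mark AGGTCA, which 14.0% of all windows hold.
Cyp2b9: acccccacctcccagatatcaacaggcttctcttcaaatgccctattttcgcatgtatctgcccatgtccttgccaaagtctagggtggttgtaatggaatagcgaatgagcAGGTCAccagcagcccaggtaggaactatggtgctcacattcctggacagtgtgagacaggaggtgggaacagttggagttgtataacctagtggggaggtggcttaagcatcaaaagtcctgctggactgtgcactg
Cyp2b13: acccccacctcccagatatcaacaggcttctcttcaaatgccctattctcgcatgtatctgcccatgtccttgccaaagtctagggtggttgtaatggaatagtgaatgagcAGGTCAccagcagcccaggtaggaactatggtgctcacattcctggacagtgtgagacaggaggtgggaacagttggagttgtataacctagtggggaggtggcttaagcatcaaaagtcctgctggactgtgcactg

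These windows were identical at 99.2% of positions, and Cyp2b10, whose signal moved on another array, matched either of them at 74.4%. The Cyp3a windows are shown because the Cyp3a probe sets fell into groups by their co-variation. They are chr5:145879855-145880104 (minus strand), chr5:145805875-145806124 (minus strand) and chr5:146009619-146009868 (minus strand). Capitals mark TGTTTAC in Cyp3a11 and Cyp3a44, and AGGTCA or its reverse complement in all 3.
Cyp3a11: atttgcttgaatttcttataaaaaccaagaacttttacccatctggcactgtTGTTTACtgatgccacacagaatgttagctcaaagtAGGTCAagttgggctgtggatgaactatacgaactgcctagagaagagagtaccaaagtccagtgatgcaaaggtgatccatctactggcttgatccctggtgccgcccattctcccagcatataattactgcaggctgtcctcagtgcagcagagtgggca
Cyp3a44: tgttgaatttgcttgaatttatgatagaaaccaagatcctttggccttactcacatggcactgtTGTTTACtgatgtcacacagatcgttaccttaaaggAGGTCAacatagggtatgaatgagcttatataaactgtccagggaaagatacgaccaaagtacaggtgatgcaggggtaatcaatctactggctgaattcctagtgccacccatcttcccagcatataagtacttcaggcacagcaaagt
Cyp3a25: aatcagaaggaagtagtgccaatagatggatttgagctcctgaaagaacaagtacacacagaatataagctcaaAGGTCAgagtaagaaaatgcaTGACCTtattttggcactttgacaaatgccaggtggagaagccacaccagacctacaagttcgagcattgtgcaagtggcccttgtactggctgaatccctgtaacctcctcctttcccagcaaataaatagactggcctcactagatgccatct

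Cyp3a11 and Cyp3a44 shared 76.8% of the 250 bases, while Cyp3a25 shared 64.8% with Cyp3a11 and 59.6% with Cyp3a44. TGTTTAC occurs in 3.17% of all windows, and begins 198 bases before the start in Cyp3a11 and 186 bases before it in Cyp3a44. Cyp3a25 lacks it in this window and holds AGGTCA on each strand, from 176 and from 155 bases before the start. The windows of the 9 members held no TTCNNNGAA, which 7.02% of all windows hold.

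Neither descendant group differed from control in any member at the adjusted threshold of 0.05 (limma, p-values adjusted over 18726 features). None of those features passed in either comparison or in F3 against F2 (0.0% called in each). At an unadjusted p under 0.05 the comparisons held 172 features for F2 against control (0.919%), 549 for F3 against control (2.93%) and 443 for F3 against F2 (2.37%). Of the 9 members, 7 had a mean above the filter of 4.55, and Cyp2b10 and Cyp2b13 did not. Their differences come from the fit without the filter, where their adjusted p-values were 0.9998 or more in all 3 comparisons (limma). Over the 9 members the median log2 difference was −0.24 for F2 minus control, −0.10 for F3 minus control and 0.13 for F3 minus F2, against medians over all features of −0.01, −0.01 and 0.0025.

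**Figure D1:**
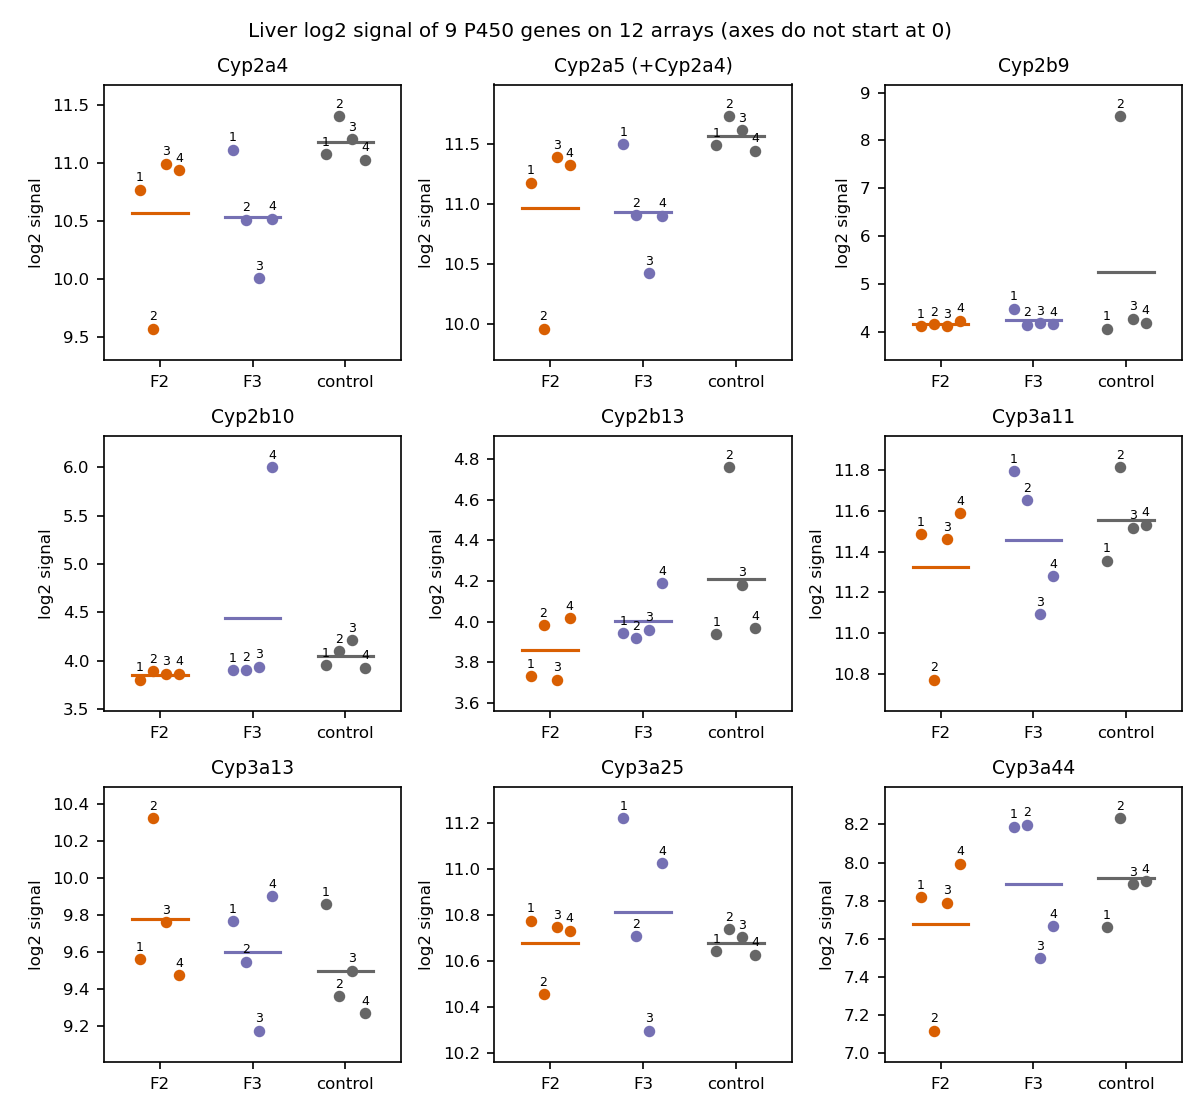
Log2 signal of the 9 genes (1 panel each, vertical axis log2, not starting at 0) on every array of the F2, F3 and control groups, with the replicate number above each point and a bar at the group mean (n = 4). F2 replicate 2 is lowest of all arrays for Cyp2a4 (9.57) and Cyp3a11 (10.77), control replicate 2 is far above the rest for Cyp2b9 (8.50) and F3 replicate 4 for Cyp2b10 (6.00).

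Cyp2a4, which encodes a testosterone 15-alpha-hydroxylase, lay below control on all F2 arrays and on most F3 arrays. Its log2 signal was 10.77, 9.57, 11.00 and 10.94 in F2, 11.12, 10.51, 10.01 and 10.52 in F3, and 11.08, 11.40, 11.21 and 11.03 in control livers. All 4 F2 arrays lay below all 4 control arrays, as in 0.406% of the features tested, and 3 of the F3 arrays did so while F3 replicate 1 lay among the controls. The log2 difference was −0.61 for F2 minus control (SE 0.29, 95% interval −1.25 to 0.02) and −0.64 for F3 minus control (SE 0.29, interval −1.28 to −0.0074). The unadjusted limma p-values were 0.0577 and 0.0478 and the adjusted ones 0.9999 and 0.9998. F2 replicate 2 set much of the size: without it the F2 difference was −0.28. Without F3 replicate 1 the F3 difference was −0.83.

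The Cyp2a5/Cyp2a4 probe set followed the same course. Cyp2a5 encodes coumarin 7-hydroxylase, which also oxidises nicotine. The probe set read 11.17, 9.96, 11.39 and 11.32 in F2, 11.49, 10.90, 10.42 and 10.90 in F3, and 11.49, 11.73, 11.61 and 11.44 in control livers. Again the F2 arrays did not overlap the controls. The differences were −0.60 for F2 minus control (SE 0.29) and −0.63 for F3 minus control (SE 0.29), and −0.27 for F2 without its replicate 2. The unadjusted limma p-values were 0.0565 and 0.0465. An unadjusted p under 0.05 with a lower value was held by 0.577% of features in F2 minus control, 1.29% in F3 minus control and 0.774% in F3 minus F2. These were the 2 members above the filter without overlap below control in F2, where 0.406% of all features tested lay wholly below control and 0.71% did not overlap in either direction. As the probe sets can read the same transcripts, they count as a single observation. No member above the filter was without overlap in F3 against control (1.63% of features, 0.902% wholly below) or in F3 against F2 (2.46%). Between F3 and F2 the difference was −0.03 for either probe set (SE 0.29), and −0.36 without F2 replicate 2.

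Cyp2b9, a female-predominant steroid hydroxylase gene, was at background on 11 arrays and high on 1. It stood at 8.50 in control replicate 2, against 4.07, 4.27 and 4.19 on the other controls. It read 4.12, 4.17, 4.12 and 4.23 in F2 and 4.49, 4.15, 4.18 and 4.16 in F3. On the 11 arrays its signal was above 44.8% to 55.0% of the negative control probe sets, and on control replicate 2 above 98.3%. The difference was −1.10 for F2 minus control (SE 0.76) and −1.01 for F3 minus control (SE 0.76), and without control replicate 2 it was −0.016 and 0.069. Cyp2b9 passed the filter at a mean of 4.55 through that array.

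Cyp2b13, its close neighbour on chromosome 7, was under the filter, and its highest value, 4.76, was on the same control array. The other controls read 3.94, 4.18 and 3.97, while F2 arrays read 3.73, 3.98, 3.71 and 4.02 and F3 arrays 3.94, 3.92, 3.96 and 4.19. The groups overlapped. The difference was −0.35 for F2 minus control (SE 0.16) and −0.21 for F3 minus control (SE 0.16), and −0.17 and −0.03 without control replicate 2. Cyp2b9 and Cyp2b13 had r = 0.86 over 12 arrays and 0.28 without control replicate 2. Their upstream windows are near-identical, and their transcripts were not compared, so shared probes remain possible.

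Control replicate 2 also stood apart in the medians of other sex-biased genes, though not in every gene alike. The median deviation of 21 female-biased liver genes was 0.50 on that array and between −0.17 and 0.13 on the others. That of 28 male-biased genes was −0.47 there and between −0.05 and 0.15 elsewhere. Hsd3b5, a male-specific steroid dehydrogenase gene, was at 8.18 on it and at 10.39 or more on the other arrays, and Cyp4a14, a fatty acid hydroxylase gene, was at 12.59 on it and at 11.62 or less elsewhere (both were picked after their values were seen). Other genes of these lists, picked likewise, went against the medians. The female-biased Cux2 (5.37), Cyp2d40 (9.25) and Ntrk2 (4.73) were at their lowest on this array. The male-biased Elovl3 (10.21) was near its highest value (10.34, on F3 replicate 3). The genes most like Cyp2b9 over the 12 arrays were Mgst3 (r = 0.97), Nt5e (r = 0.97) and Pdk4 (r = 0.97), a kinase gene induced by fasting, and without control replicate 2 their r was 0.31, 0.31 and 0.08. The part of these differences in the Cyp2b9 signal was not tested.

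Cyp2b10, the classic CAR target gene induced by phenobarbital, was likewise raised on 1 array, of another group. It read 6.00 in F3 replicate 4 and 3.90, 3.91 and 3.94 on the other F3 arrays. F2 arrays read 3.80, 3.89, 3.86 and 3.86 and controls 3.95, 4.10, 4.21 and 3.93. All 4 F2 arrays lay below all 4 controls, by values within background. So did 0.406% of the features tested, which do not include Cyp2b10, and no share was taken among features under the filter. F3 replicate 4 was above 85.6% of the negative controls and every other array above 38.8% to 53.8%. The difference was −0.19 for F2 minus control (SE 0.37) and 0.39 for F3 minus control (SE 0.37), and the F3 value was −0.13 without F3 replicate 4. Cyp2b9 (4.16) was at background on that array, and Cyp2b13 (4.19) stood 0.23 above its median. The genes most like Cyp2b10 were Wfdc12 (r = 0.98), Rgs5 (r = 0.96), a pericyte marker, and Tuba8 (r = 0.92). They read 6.63, 7.83 and 6.59 on F3 replicate 4, and without the array that mattered most r was 0.58, 0.40 and 0.52.

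Cyp3a11, the main PXR-inducible drug and bile acid hydroxylase gene of mouse liver, did not separate the groups. It read 11.49, 10.77, 11.46 and 11.59 in F2, 11.79, 11.65, 11.09 and 11.28 in F3, and 11.36, 11.81, 11.52 and 11.53 in control livers. F2 replicate 2 was the lowest array and F3 replicate 3 the next. The difference was −0.23 for F2 minus control (SE 0.19, interval −0.64 to 0.18), −0.10 for F3 minus control (SE 0.19, interval −0.51 to 0.31) and 0.13 for F3 minus F2 (SE 0.19). Without F2 replicate 2 the F2 minus control value was −0.04 and the F3 minus F2 value −0.056.

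Cyp3a44, a female-predominant member of the same cluster, ran in parallel. It read 7.82, 7.12, 7.79 and 7.99 in F2, 8.19, 8.20, 7.50 and 7.67 in F3, and 7.66, 8.23, 7.89 and 7.90 in control livers. The groups overlapped, with differences of −0.24 for F2 minus control (SE 0.21), −0.03 for F3 minus control (SE 0.21) and 0.21 for F3 minus F2 (SE 0.21). Leaving out F2 replicate 2 gave −0.05 for F2 minus control and 0.021 for F3 minus F2.

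Cyp3a25 stayed within a narrower range in the F2 and control groups and spread in F3. It read 10.77, 10.45, 10.75 and 10.73 in F2, 11.22, 10.71, 10.30 and 11.03 in F3, and 10.64, 10.74, 10.70 and 10.63 in control livers. F3 replicates 1 and 4 were the highest of the 12 arrays and F3 replicate 3 the lowest. The SD was 0.15 in F2, 0.40 in F3 and 0.052 in control livers (n = 4 each), and the difference in spread was not tested. The difference was −0.0007 for F2 minus control (SE 0.16, interval −0.34 to 0.34) and 0.14 for F3 minus control (SE 0.16, interval −0.21 to 0.48).

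Cyp3a13, which lies apart from the Cyp3a cluster on chromosome 5, was highest on F2 replicate 2, where Cyp3a11 was lowest. It read 9.56, 10.32, 9.76 and 9.47 in F2, 9.77, 9.55, 9.17 and 9.90 in F3, and 9.86, 9.36, 9.50 and 9.27 in control livers. The groups overlapped. The difference was 0.28 for F2 minus control (SE 0.20) and 0.10 for F3 minus control (SE 0.20), and 0.10 for F2 without its replicate 2. No interval of a Cyp3a difference from control reached 0.80 in either direction.

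None of the remaining F3 minus F2 differences passed, and most of them came near 0 when a single array was left out. Cyp2b9 was at 0.08, and at 0.0047 without F3 replicate 1. Cyp2b13 was at 0.14. Cyp3a25 was at 0.14, and as low as −0.0002 with a single array left out. Cyp2b10 was at 0.58, and at 0.059 without F3 replicate 4. Its F3 arrays all lay above its F2 arrays, narrowly and within background (lowest F3 value 3.90, highest F2 value 3.89). Of the features tested, which do not include Cyp2b10, 2.46% did not overlap in either direction. Cyp3a13 was at −0.18, and at −0.0002 without F2 replicate 2.

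**Figure D2:**
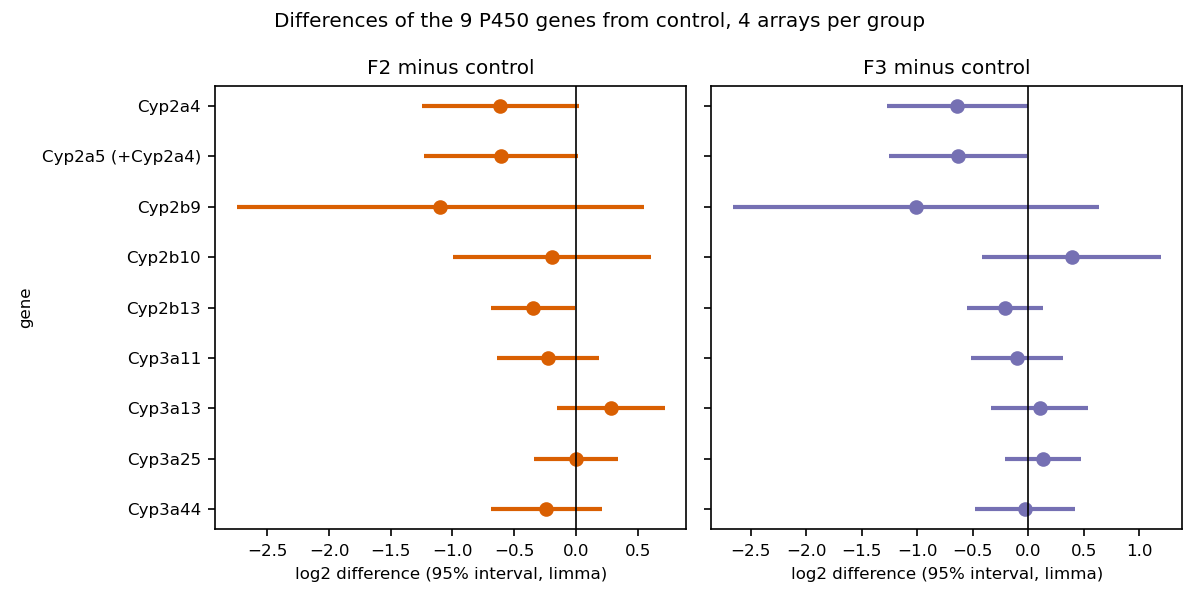
Log2 difference from control of the 9 genes (vertical axis) in F2 (left) and F3 livers (right), with points for the limma estimate and lines for its 95% interval on the horizontal axis (4 arrays a group). The intervals of Cyp2a4 in F2 (−1.25 to 0.02) and F3 (−1.28 to −0.0074) sit at the edge of 0, and those of Cyp2b9 are the widest.

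The members varied more between arrays than most genes. Over 12 arrays their SD lay between 0.24 for Cyp3a25 and 1.25 for Cyp2b9, against a median of 0.124 over all features tested. Cyp3a25 had a larger SD than 90.0% of features and Cyp2b9 than 99.9%. Single arrays carried much of it. For 5 members the array farthest from the rest was F2 replicate 2, for Cyp2b9 and Cyp2b13 control replicate 2, for Cyp2b10 F3 replicate 4 and for Cyp3a25 F3 replicate 1. The SD over the remaining 11 arrays was 0.39 for Cyp2a4, 0.11 for Cyp2b9 and 0.12 for Cyp2b10.

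**Figure D3:**
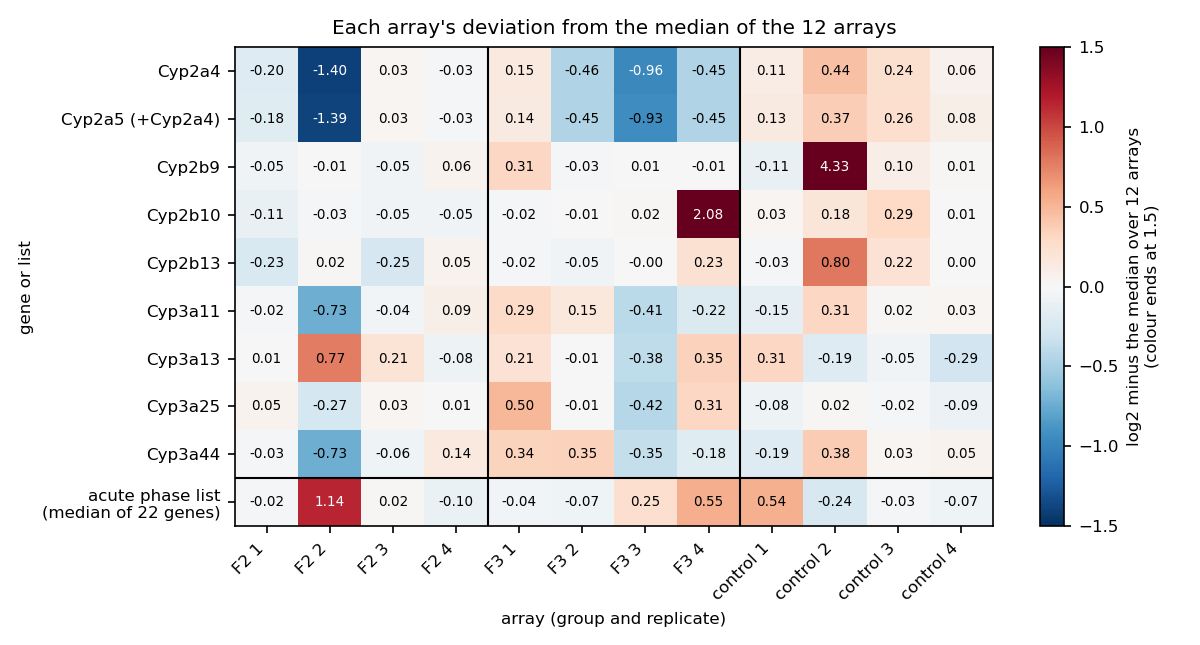
Deviation of each array (columns, F2, F3 and control) from the median of the 12 arrays, in log2 units, for the 9 genes and, in the bottom row, for 22 acute phase genes (the median of their deviations). F2 replicate 2 is low for Cyp2a4, Cyp2a5, Cyp3a11 and Cyp3a44 and high for Cyp3a13 and the acute phase genes (1.14), and single cells stand out for Cyp2b9 in control replicate 2 and Cyp2b10 in F3 replicate 4.

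Of the 36 pairs of members, 6 co-varied over the 12 arrays (Pearson's r, 2-sided permutation test with 100000 resamples, adjusted over 36 pairs), and all 6 were positive. The weakest of them had r = 0.76, and 5.27% of all pairs of tested features had an absolute r as large. The closest were Cyp2a4 with Cyp2a5 (r = 0.999, rho = 0.99, adjusted permutation p = 0.00018) and Cyp3a11 with Cyp3a44 (r = 0.98, rho = 0.99, adjusted permutation p = 0.00018). Their raw p of 1e-05 is the smallest these resamples can give. Without the arrays farthest from the median, F2 replicate 2 and F3 replicate 3, r was 0.996 and 0.96. These 2 pairs also passed by Spearman's rho. Within the 7 arrays of higher small nucleolar RNA signal r was 0.999 and 0.97. The Cyp2a5/Cyp2a4 probe set also reads Cyp2a4, so its correlation with Cyp2a4 was largely given in advance. That pair is no evidence that separate genes co-vary.

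The other 4 pairs joined the Cyp2a and Cyp3a subfamilies and rested on the same few arrays. Those with Cyp2a5 repeat those with Cyp2a4, as these probe sets count as a single observation. Those with Cyp3a44 may likewise repeat those with Cyp3a11, as close copies can share probes. Cyp2a4 and Cyp3a11 had r = 0.86 (rho = 0.63, adjusted permutation p = 0.0101), and r was 0.46 without F2 replicate 2 and F3 replicate 3. Cyp2a4 and Cyp3a44 had r = 0.77 (rho = 0.55, adjusted permutation p = 0.0306) and 0.25 without those arrays. Cyp2a5 gave r = 0.85 with Cyp3a11 and 0.76 with Cyp3a44, and 0.42 and 0.21 without those arrays. By Spearman's rho none of the 4 passed. Ordered by r with Cyp2a4 over all tested features, Cyp3a11 came at rank 19 and Cyp3a44 at rank 113, and Cyp3a44 came at rank 121 for Cyp2a5. Within the 7 arrays of higher small nucleolar RNA signal r was 0.86 for Cyp2a4 with Cyp3a11 and 0.73 with Cyp3a44. In the 5 of lower signal, which hold F2 replicate 2, r was 0.98 and 0.95. Those 5 arrays are too few for a correlation of their own, and no conclusion was drawn from them.

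Cyp2b9, Cyp2b10, Cyp2b13, Cyp3a13 and Cyp3a25 were in none of the 6 pairs. Cyp2b9 and Cyp2b13 had r = 0.86 with an adjusted permutation p of 0.0821. Cyp3a13 had r = −0.49 with Cyp3a11 and −0.52 with Cyp3a44 (adjusted permutation p = 0.255 for each). Without control replicate 2, F2 replicate 2 and F3 replicate 4 these values were 0.41 and 0.26.

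The Cyp3a genes were read beyond the members. Probe sets of Cyp3a11, Cyp3a16, Cyp3a44 and the Cyp3a41 pair (Cyp3a41a and Cyp3a41b, read together by 2 probe sets) correlated with each other at r of 0.97 to 0.9997. Cyp3a25, Cyp3a57 and Cyp3a59 correlated with each other at 0.98 to 0.99. Between these groups r was 0.45 to 0.60, and Cyp3a13 had r of −0.52 to −0.45 with the Cyp3a11 group and 0.21 to 0.31 with the Cyp3a25 group. Without control replicate 2, F2 replicate 2 and F3 replicate 4 r between the groups was 0.66 to 0.88 and r within them 0.92 or more. These are descriptions over 12 shared arrays. Close copies can share probes and transcripts, so co-variation within a group cannot be told apart from cross-reading.

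The upstream windows fell into the same groups. Genes of the Cyp3a11 group shared 76.8% to 99.6% of the 250 bases and those of the Cyp3a25 group 89.6% to 95.2%, while 58.0% to 66.4% were shared between the groups. Cyp3a13 shared 56.4% to 64.8% with the others. TGTTTAC, marked in the Cyp3a11 and Cyp3a44 sequences above, was in the windows of all 5 genes of the Cyp3a11 group and in none of Cyp3a25, Cyp3a57, Cyp3a59 and Cyp3a13. AGGTCA stood on both strands in Cyp3a25, Cyp3a57 and Cyp3a59. Genes with alike windows can also have alike transcripts, which were not compared here. Which of these goes with the signal was not tested.

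**Figure D4:**
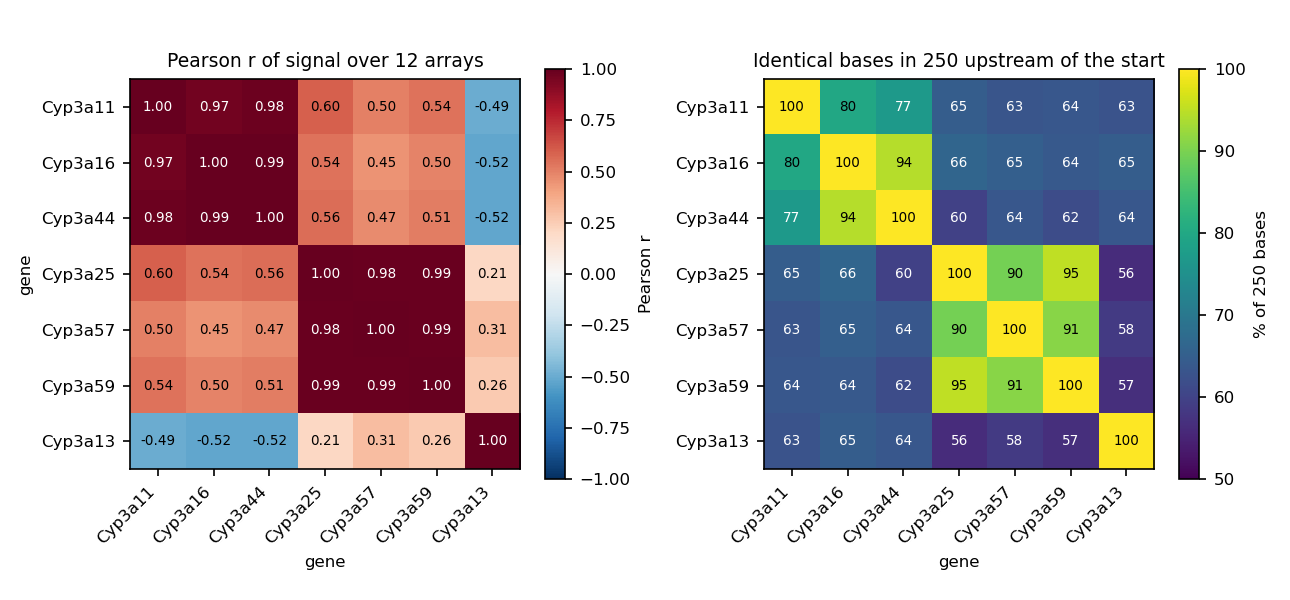
Pearson's r between log2 signals over 12 arrays (left) and percent of the 250 upstream bases that are identical (right) for 7 Cyp3a genes with a probe set of their own, genes on both axes. Cyp3a11, Cyp3a16 and Cyp3a44 form a square of r from 0.97 to 0.99 and Cyp3a25, Cyp3a57 and Cyp3a59 another of 0.98 to 0.99, with the same squares in the sequence panel.

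The 3 genes outside the members most like each by Pearson's r over 12 arrays were named as a description. For Cyp2a4 they were Mfn2 (r = 0.94, rho = 0.90), a mitochondrial fusion gene, Cabcoco1 (r = 0.92) and D2hgdh (r = 0.91), and for Cyp2a5 Mfn2 (r = 0.95), D2hgdh (r = 0.91) and Btbd2 (r = 0.91). Cyp3a11 was most like Cyp3a16 (r = 0.97), Cmbl (r = 0.93) and the retinol dehydrogenase gene Rdh19 (r = 0.92). Cyp3a44 was most like Cyp3a16 (r = 0.99), Rdh19 (r = 0.92) and Tyw5 (r = 0.92). Cyp3a25 had Cyp3a59 (r = 0.99), Cyp3a57 (r = 0.98) and then, at some distance, Prkacb (r = 0.83). Cyp3a13 had Gjc3 (r = 0.95), Serinc3 (r = 0.89) and Apon (r = 0.88), and Cyp2b13 had Bcl2l11 (r = 0.94), Morc4 (r = 0.90) and Mgst3 (r = 0.89). Leaving out any single array kept r at 0.75 or more for these genes, apart from those of Cyp2b13, where Morc4 and Mgst3 had 0.61 and 0.53 without control replicate 2.

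Of the 9 members, 5 correlated with the acute phase level of their array, each with an absolute r of at least 0.74, which 3.23% of all tested features had. That level, the median deviation of 22 acute phase genes from their own medians, was 1.14 on F2 replicate 2, 0.55 on F3 replicate 4, 0.54 on control replicate 1, 0.25 on F3 replicate 3 and between −0.24 and 0.02 on the other 8. Saa1, a serum amyloid A gene picked as an example after its values were seen, read 12.66, 11.65, 12.03 and 11.95 on those 4 arrays and at most 9.67 elsewhere. All 3 groups held such an array. The relation was looked at after the data were seen, over 9 members, with p-values adjusted over the 9. Cyp2a4 and Cyp2a5, both among the 5, count as a single observation. Cyp3a11 and Cyp3a44, also among the 5, had r = 0.98 with each other. As cross-reading between them cannot be told apart from co-variation, they are not taken as separate results.

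Cyp3a11 lay lower where the acute phase level was higher (r = −0.89, rho = −0.92, adjusted permutation p = 0.00252 for r and 0.000585 for rho). Cyp3a44 did so too (r = −0.88, rho = −0.92, adjusted permutation p = 0.00252 and 0.000585). An absolute r as large as theirs was held by 0.433% of features for Cyp3a11 and 0.47% for Cyp3a44. Without F2 replicate 2 and F3 replicate 4, the arrays farthest from the median level, r was −0.72 for Cyp3a11 and −0.75 for Cyp3a44. Within the 7 arrays of higher small nucleolar RNA signal r was −0.89 and −0.85, and with group means taken out of all 12 arrays it was −0.89 for each. In the higher set only F3 replicate 3 had a level above 0 (0.25), and it was lowest for both genes.

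Cyp2a4 had r = −0.74 (rho = −0.53, adjusted permutation p = 0.0201 for r and 0.119 for rho), and −0.33 without those 2 arrays. Cyp2a5 gave −0.74 and −0.30. Within the 7 arrays of higher small nucleolar RNA signal, which hold neither of those 2 arrays, r was −0.89 for Cyp2a4 and −0.88 for Cyp2a5, and both passed there. In that set only F3 replicate 3 had an acute phase level above 0 (0.25), and its Cyp2a4 signal (10.01) was the lowest. Cyp3a13 went the other way (r = 0.78, rho = 0.67, adjusted permutation p = 0.0125 and 0.0608), with 0.34 without those 2 arrays and −0.32 within the higher set. The Cyp3a13 relation therefore rested on few arrays, and the size of the Cyp2a relations changed with the arrays taken. Cyp3a25 had r = −0.30 (adjusted permutation p = 0.367), and Cyp2b9, Cyp2b10 and Cyp2b13 were between −0.35 and 0.27. Without F2 replicate 2 alone, 2 of the 9 relations passed, those of Cyp3a11 and Cyp3a44, with an absolute r of at least 0.75, which 2.56% of features had on those arrays. Without control replicate 2, F2 replicate 2 and F3 replicate 4 none of the 9 passed, with r = −0.65 for Cyp3a11 and −0.69 for Cyp3a44 over 9 arrays.

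**Figure D5:**
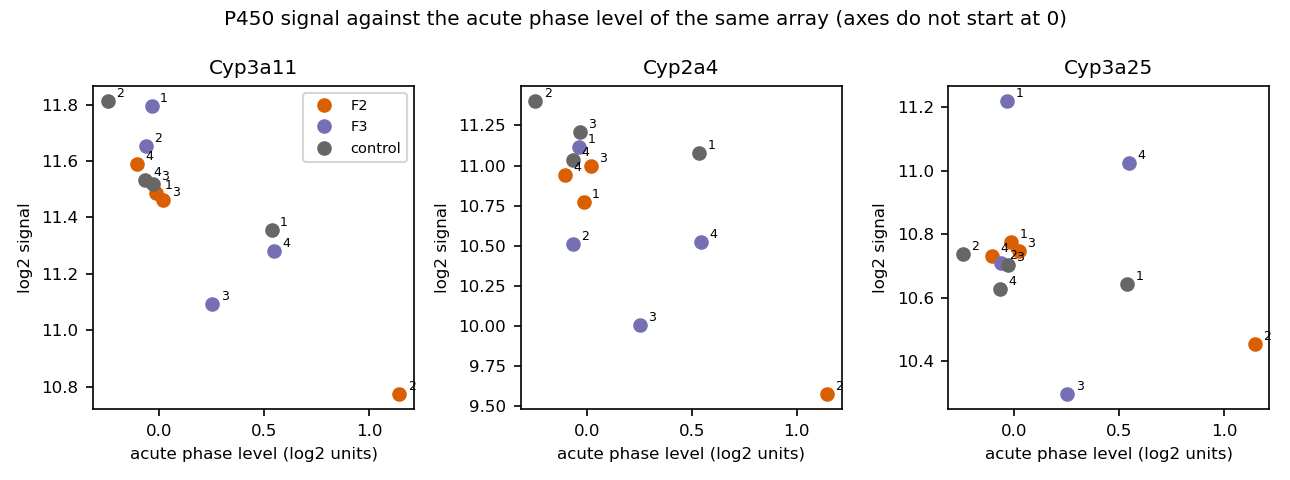
Log2 signal of Cyp3a11, Cyp2a4 and Cyp3a25 (vertical axes, not starting at 0) against the acute phase level of the same array (horizontal axis, log2 units), 12 arrays coloured by group and numbered by replicate. Cyp3a11 is lower at higher levels (r = −0.89), Cyp2a4 is lowest on F2 replicate 2 and F3 replicate 3 (r = −0.74), and Cyp3a25 shows no such order (r = −0.30).

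Markers of other liver cells moved on F2 replicate 2 as well. The median deviation of 10 Kupffer cell markers was 0.50 there and that of 5 lymphocyte markers 0.41. That of 8 pericentral hepatocyte markers was −0.27. All 10 Kupffer markers measured were above the filter, and their mean log2 signal was 7.39 to 8.13 in F2, 7.22 to 7.81 in F3 and 7.47 to 7.79 in control livers. In whole liver RNA, fewer cells of a type and less RNA per cell cannot be told apart. The part of these markers in the member differences was not tested, and without F2 replicate 2 the Cyp3a11, Cyp3a44 and Cyp2a4 differences of F2 livers were −0.04, −0.05 and −0.28.

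Other genes that act with the members were counted on lists, again written with earlier results known. No gene of any list passed the adjusted threshold in any comparison (limma), so the values are given without a direction of change. Of 8 tested relatives and neighbours of the members, 5 had higher and 3 lower values in F2 than in control livers (median 0.0091), with Cyp2g1 at −0.20 (SE 0.13) and Cyp3a16 at −0.19 (SE 0.18). In F3 livers the split was again 5 and 3 (median 0.05), with Cyp2g1 at −0.35 (SE 0.13) and Cyp2a22 at 0.10 (SE 0.068). In F3 minus F2, Cyp2g1 was at −0.15 and Cyp3a57 at 0.17.

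Of 23 other CAR and PXR target genes tested, all 23 had lower values in F2 than in control livers (median −0.22, against −0.01 over all features), 2 of them at an unadjusted p under 0.05. Gstm2, a glutathione transferase gene, averaged 8.43 ± 0.06 in F2 and 8.69 ± 0.16 in control livers (SD, n = 4 each), a difference of −0.27 (SE 0.084). Gstt3, of the same enzyme class, was at −0.53 (SE 0.23). The list's level on F2 replicate 2 was −0.45, and between −0.02 and 0.03 on the other F2 arrays, while control replicate 2 stood at 0.33. In F3 livers 18 of the 23 were lower and 5 higher (median −0.11), with Gstm2 at −0.27 (SE 0.084) and the retinaldehyde dehydrogenase gene Aldh1a1 at −0.32 (SE 0.16). F3 against F2 livers gave 15 higher and 8 lower, with the transporter gene Slco1a4 at 0.52 and Cyp2c55 at 0.31.

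Regulators of the members showed small differences. Of 24 tested, 15 were higher and 9 lower in F2 than in control livers (median 0.02), with Rxra, the partner receptor of CAR and PXR, at 0.12 (SE 0.066) and Nfe2l2, the oxidative stress factor gene, at −0.24 (SE 0.13). In F3 livers 8 were higher and 16 lower (median −0.03), with Rxra at −0.12 (SE 0.066) and Nr3c1, the glucocorticoid receptor gene, at 0.10 (SE 0.064). Rxra averaged 9.66 ± 0.09 in F3 and 9.91 ± 0.06 in F2 livers (SD, n = 4 each), and all F3 arrays lay below all F2 arrays, as did 0.838% of features. Its difference was −0.25 (SE 0.066, adjusted p = 0.9999, limma). Cebpb was at −0.25 in the same comparison.

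Among 11 genes of haem synthesis and P450 electron transfer, 2 were higher and 9 lower in F2 than in control livers, with Alad at −0.19 (SE 0.098) and Alas1, the rate-limiting enzyme gene of haem synthesis, at 0.32 (SE 0.19). In F3 livers 1 was higher and 10 lower, with Alad at −0.21 (SE 0.098) and Hmox1, which breaks haem down, at −0.35 (SE 0.19). Cpox was at −0.17 and Alas1 at −0.33 in F3 minus F2.

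Sex-biased genes outside the members gave no shared direction. Of 21 female-biased genes 9 were higher and 12 lower than control in F2 and in F3 livers alike, with Cyp2c40 at 0.16 (SE 0.082) in F2 and 0.40 (SE 0.082) in F3 livers and Cyp2c69 at 0.17 (SE 0.093) and 0.40 (SE 0.093). Between F3 and F2 they were at 0.24 and 0.23. Of 28 male-biased genes 19 were higher and 9 lower in each descendant group than in control livers, with Serpina12 at 0.69 and C8a at 0.34 in F2 and Nudt7 at 0.29 and Slco1a1 at 0.24 in F3 livers. Serpina12 was at 5.03 on control replicate 2 and at 6.75 or more on the other arrays. Between F3 and F2, Cyp4a12a was at −0.14 and Bcl6 at 0.47. Among 12 growth hormone signalling genes, Igf1 was at 0.32 (SE 0.12) and Igfals at 0.17 in F2, and Igf1 at 0.26 (SE 0.12) and Stat5b at −0.11 in F3 livers. Between F3 and F2, Stat3 was at −0.20 and Stat5b at −0.07.

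Of the 22 acute phase genes all 22 were higher in F2 than in control livers (median 0.25), with Il1r1 at 0.60 (SE 0.22) and Cp at 0.19 (SE 0.11). In F3 livers 19 were higher and 3 lower (median 0.16), with Fgb at 0.16 and Cp at 0.17. In F3 minus F2 livers, Il6ra was at −0.35 and Mt2 at −1.23 (SE 0.81). F2 replicate 2 had the highest level of this list on any array (1.14), and the next F2 array was at 0.02.

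Many of these list values rested on 1 array: of the 48, 33 moved by more than 1.5 times or changed sign (1 value) without the array that mattered most. Without control replicate 2 the F2 minus control values were 0.20 for Serpina12, 0.099 for C8a, 0.18 for Igf1 and 0.047 for Igfals. The F3 minus control values were then 0.15 for Nudt7, 0.12 for Igf1 and −0.19 for Aldh1a1. Without F2 replicate 2 the F2 minus control values were −0.027 for Cyp3a16, −0.31 for Gstt3, −0.14 for Nfe2l2 and 0.11 for Cp. In F3 minus F2 that array took Slco1a4 to 0.17, Bcl6 to 0.052, Stat3 to 0.0034, Mt2 to −0.47 and Cyp4a12a to −0.31 when left out. Gstm2 (−0.33 without control replicate 1 in either descendant group) and Cyp2c40 in F3 livers (0.33 without F3 replicate 4) moved by less.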

How the data were processed

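Male mouse liver total RNA, in 12 samples labelled by group and replicate (4 arrays a group), was hybridised to Affymetrix whole-transcript arrays. The authors deposited log2 signal for 72688 probe sets, and per the submitters' processing notes the tool was Affymetrix Expression Console. How probes were summarized and arrays normalized is not given in the sources used here. Scanner intensities were not used here. The number of arrays limits precision.

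Platform annotation gave 1 symbol for 30604 probe sets and several for 2146. The probe set with the highest mean stood for a gene, and the Cyp2a5/Cyp2a4 probe set was added. Features with a mean above the median of all probe sets (4.55) were tested: 18726, with limma 3.58.1 in R 4.3.3, all 12 arrays in 1 fit without covariates, and Benjamini-Hochberg adjustment at 0.05. The test was tried on simulated data first. Pairs of members were tested with Pearson's r and Spearman's rho by permutation (100000 resamples, exact under 10 arrays), using scipy 1.17.1. Members, gene lists and tests were chosen with earlier results of these data known. All 9 members were named, with the 2 genes of lowest unadjusted p per list and comparison and the 3 genes most like each member. Alternatives were other scalings, filters, array weights, blocks and array subsets. Same-numbered arrays of different groups did not deviate together.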

Additional observations from a re-analysis of the deposited data

Results flagged for a closer look

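8 member values lay far from the other 3 arrays of their group, out of 27 groups of 4 arrays checked. Chance alone marks about 1 in 20 groups of independent, normally spread values. That rate cannot be set against the 8, as the groups share arrays and the members were chosen with earlier results known. Of the 8 values, 4 were on F2 replicate 2. Cyp2a4 was at 9.57 there (other F2 arrays 10.77 to 11.00) and the Cyp2a5/Cyp2a4 probe set, which is no separate observation, at 9.96 (11.17 to 11.39). Cyp3a11 was at 10.77 (11.46 to 11.59) and Cyp3a25 at 10.45 (10.73 to 10.77). The same array had the highest acute phase level (1.14) and the highest Kupffer marker level (0.50), and whether these go with the low P450 values was not tested beyond the correlations given above.

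Control replicate 2 stood at 8.50 for Cyp2b9 (other controls 4.07 to 4.27). F3 replicate 4 stood at 6.00 for Cyp2b10 (other F3 arrays 3.90 to 3.94) and at 4.19 for Cyp2b13 (3.92 to 3.96), and F3 replicate 1 stood at 4.49 for Cyp2b9 (4.15 to 4.18). All 3 values on F3 arrays are below the 95th percentile of the negative control probe sets (7.05).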

How the results depend on the processing

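No gene passed the adjusted threshold in 73 of 75 counts under 25 alternatives (limma). With the 5 arrays of lower small nucleolar RNA signal alone, which hold 1 F3 array assumed to vary like the others, 2 genes passed in F3 minus control (Obp2a and Treh) and 3 in F3 minus F2 (with Wfdc12). None is a member. Of 36 pairs, 6 passed in the values reported, 4 after quantile normalization and 2 by Spearman's rho. With group means taken out 9 passed, and with array set means taken out 7. With the 7 arrays of higher signal alone 3 passed. Without control 2, F2 2 and F3 4 together (chosen after seeing the data) 2 passed. When single arrays were left out 2 to 7 passed, with 2 without F2 replicate 2 and 2 without F3 replicate 3. With group means taken out, r of Cyp3a25 was 0.77 with Cyp2a4 and 0.66 with Cyp3a11. Of the 9 acute phase relations 5 passed as reported, 3 after quantile normalization, 4 with the arrays of higher signal alone and 4 after removing array set means (each with Cyp2a4 and Cyp2a5), 2 by Spearman's rho, 2 without F2 replicate 2 and 0 without those 3 arrays. An absolute r as large as the weakest of the 5 was held by 3.23% of all features. Cyp2a4 and the Cyp2a5/Cyp2a4 probe set are counted apart in these numbers, though they are a single observation. Cyp3a11 and Cyp3a44 are counted apart too, though cross-reading between them cannot be told apart from co-variation.

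Of 594 member differences under alternatives, 553 kept their sign, and none of those with an adjusted p passed the threshold. Those of Cyp2b10 and Cyp2b13, under the filter, had no adjusted p and could not pass. The cause of the 41 reversals was not tested. Without those 3 arrays the reversed values of F2 minus control were 0.043 for Cyp3a11, 0.093 for Cyp3a25 and 0.052 for Cyp3a44. Those of F3 minus control were 0.096 for Cyp2b9, −0.11 for Cyp2b10, 0.045 for Cyp3a11, −0.047 for Cyp3a13 and 0.15 for Cyp3a44, and of F3 minus F2 −0.0093 for Cyp3a25. With the higher-signal arrays they were 0.071 for Cyp3a25 (F2 minus control), −0.099 for Cyp2b10 (F3 minus control), and −0.023 for Cyp3a11 and −0.011 for Cyp3a25 (F3 minus F2). With the lower-signal arrays they were 0.13 for Cyp2b13 (F3 minus control), and 0.24 for Cyp2a4 and 0.23 for Cyp2a5 (F3 minus F2). Median centring gave 0.016 and array weights 0.086 for Cyp3a25 (F2 minus control), array weights −0.025 for Cyp3a11 and the array set as a block −0.12 for Cyp2b9 (F3 minus F2).

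When single arrays were left out, the differences that changed sign ranged in F2 minus control over −0.033 to 0.073 for Cyp3a25. In F3 minus control they ranged over −1.41 to 0.069 for Cyp2b9, −0.13 to 0.57 for Cyp2b10, −0.21 to 0.021 for Cyp3a11, −0.0008 to 0.24 for Cyp3a13, −0.0008 to 0.31 for Cyp3a25 and −0.14 to 0.099 for Cyp3a44. In F3 minus F2 they ranged over −0.36 to 0.15 for Cyp2a4, −0.36 to 0.14 for Cyp2a5, −0.056 to 0.25 for Cyp3a11 and −0.0002 to 0.31 for Cyp3a25.

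The replicate numbers did not pair the arrays: 12 same-numbered pairs correlated at −0.51 to 0.32 and 3 of them above 0.1. With the replicate number as a block 0 genes passed in each comparison, and 140, 409 and 341 had an unadjusted p under 0.05 in F2 minus control, F3 minus control and F3 minus F2. Signal at background limits what Cyp2b9, Cyp2b10 and Cyp2b13 can show on most arrays.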
